A study of Mus musculus with 7 samples.

Results

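The integrin and laminin subunit genes were followed across mouse induced pluripotent stem (iPS) cells, embryonic stem (ES) cells and mouse embryonic fibroblasts (MEFs). They were chosen by symbol, as integrin alpha genes (Itga with a number or letter), integrin beta genes (Itgb with a number) and laminin alpha, beta and gamma chain genes (Lama, Lamb and Lamc with a number). With 1 probe set a gene this gave 36 of the 19938 genes tested on the array, namely 18 integrin alpha, 8 integrin beta and 10 laminin genes. Messenger RNA was measured on 7 Affymetrix arrays, 1 array a culture. The iPS lines O4-1, O4-2 and O4-4, made by infecting MEFs with Oct4, gave 3 arrays in KSR medium. A further array held O4-1 grown in N2B27 with 2i (inhibition of the kinases MEK and GSK3), and OG2 ES cells gave 1 array in the same 2i medium. MEFs from 129/OG2 embryos at 13.5 days post coitum gave 1 array in iCD1 medium and 1 array in FBS medium. OG2 mice carry a green fluorescent reporter driven by the Oct4 promoter. The sources used here do not say whether a line was 1 clone or whether feeder cells were used.

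Integrins are receptors in the cell membrane made of an alpha and a beta subunit, which bind the extracellular matrix outside and the actin cytoskeleton inside. The alpha subunit largely sets the ligand, so that some receptors read the RGD motif of fibronectin and vitronectin, others collagens and others laminins. Laminins are secreted trimers of an alpha, a beta and a gamma chain that build basement membranes. Mouse ES cells and the early embryo are known to make laminin and to bind it through integrins, whereas fibroblasts are known for fibronectin and collagen receptors.

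The labels were checked against marker genes. Of 10 pluripotency markers 10 rose in the KSR lines over MEFs. Their mean log2 level was 9.75 to 9.96 on the KSR arrays and 9.85 to 10.06 in 2i, against 4.25 and 4.26 in MEFs in iCD1 and FBS. Among these markers Pou5f1 is the gene of Oct4, the factor used to make the lines. The part of the introduced copy in its value was not tested. Of 9 measured fibroblast markers 7 fell. Their mean level was 6.66 in O4-1, 6.65 in O4-2 and 7.15 in O4-4 in KSR, 6.18 in O4-1 in 2i and 6.74 in ES cells, against 9.89 in MEFs in iCD1 and 9.46 in FBS. Among the KSR lines 5 of the 9 markers were highest in O4-4 (Col1a1, Col1a2, Postn, Dcn and Pdgfrb) and 2 were lowest there (Thy1 and Pdgfra). Their part in the values below was not tested. In such bulk samples fewer cells of a type and less RNA per cell cannot be told apart. All values are the deposited log2 expression, with array medians of 4.97 to 5.03 over all probe sets. Over the 19938 genes tested the median of all values was 5.21. No level is set against that of another gene, because probe sets differ in response.

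Integrin genes that changed fell, and laminin genes went both ways. In the KSR lines against MEFs 16 of the 36 genes fell and 2 rose (limma, adjusted p at or under 0.05 over all genes). This is 44.4% and 5.56% of the members, where 14.3% of all genes fell and 12.1% rose. At an unadjusted p under 0.05 limma counted 22 members, against 39% of all genes. Integrins made up 13 of the falls, and 0 of 26 integrin genes rose, with 1 higher at an unadjusted p under 0.05 (Itgal, limma). Among the 10 laminin genes, Lama4, Lama2 and Lamb2 fell while Lama1 and Lama3 rose. The median difference was -0.82 over the integrins, 0.05 over the laminins and 0.00 over all genes. On all 5 pluripotent arrays 18 members lay below both MEF arrays and 4 lay above, against 22% and 21.9% of all genes, which is 50% and 11.1% of the members. Only the KSR lines were replicated, and nothing says that the cultures were independent, so p-values measure the spread between these lines. With O4-1 or O4-2 left out limma called 0 of all genes, and the lowest adjusted p of the 18 called members was 0.0833 and 0.0503, while 18 of 18 kept their direction and an unadjusted p under 0.05. Without O4-4, 11 of the 18 were called, and Itga7, Itgad, Itgb3, Itgb5, Itgb8, Lama1 and Lama3 were not, with adjusted p up to 0.107.

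**Figure D1:**
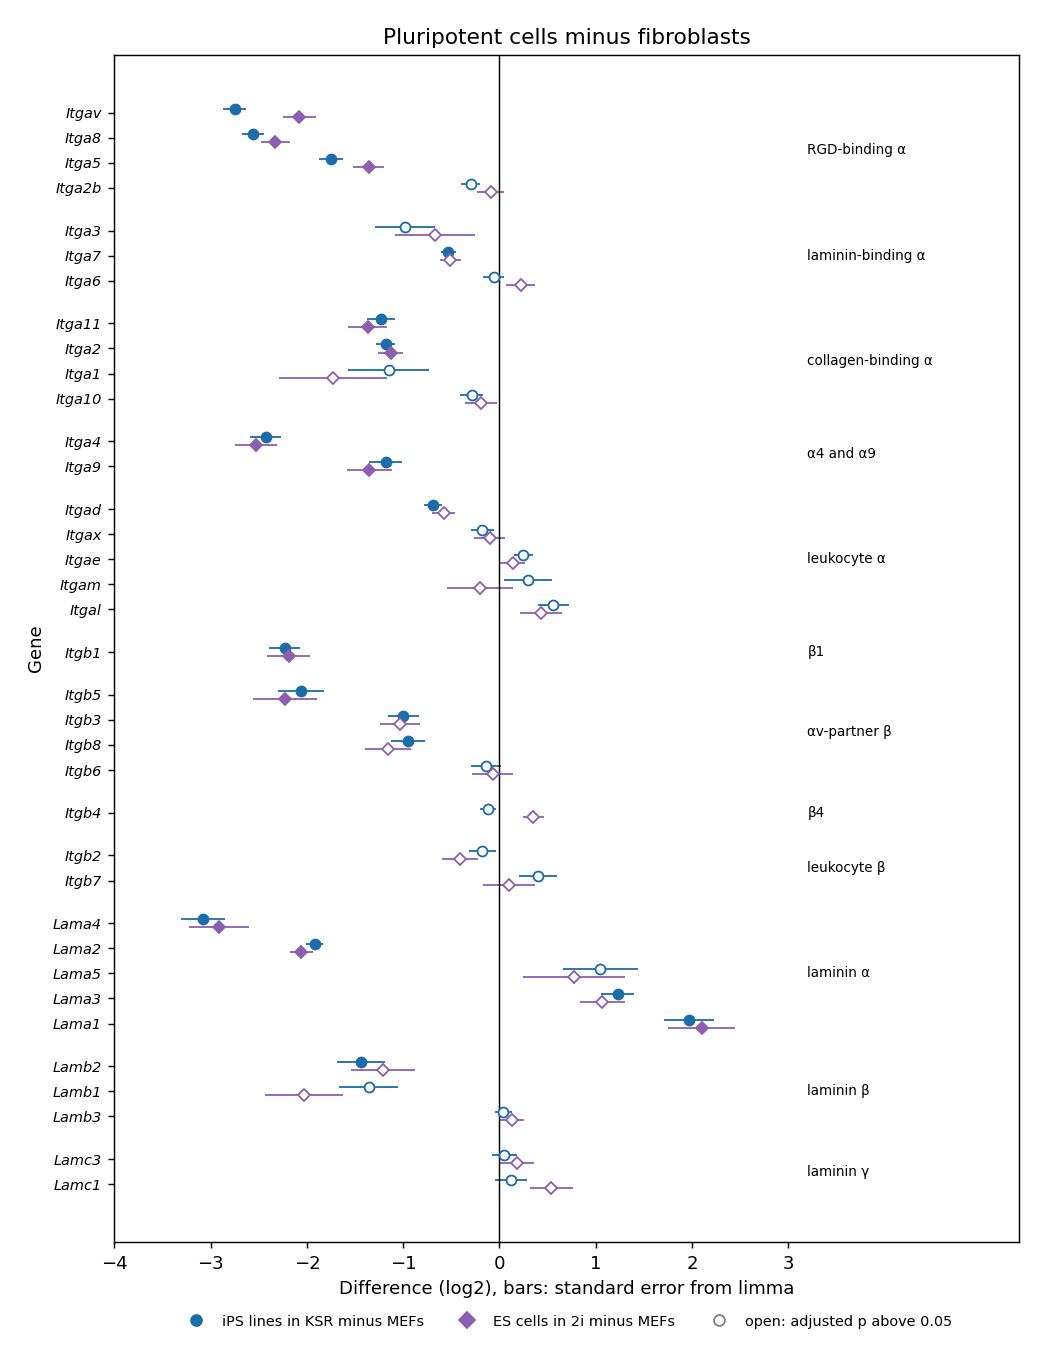
Difference in log2 expression of the 36 genes, ordered by role, with circles for iPS lines in KSR minus MEFs (3 against 2 arrays) and diamonds for ES cells in 2i minus MEFs (1 against 2 arrays). Bars are standard errors from limma and open symbols have an adjusted p above 0.05. Filled symbols lie left of 0 for 13 integrins and 3 laminins and right of 0 for Lama1 and Lama3.

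Of the 4 alpha subunits that read the RGD motif 3 fell. Itgav, the subunit that pairs with several beta subunits to bind vitronectin, fibronectin and latent TGF-beta, was at 6.83 in O4-1, 6.90 in O4-2 and 7.10 in O4-4 in KSR, 7.0 in O4-1 in 2i and 7.62 in ES cells, against 9.54 in MEFs in iCD1 and 9.86 in FBS. The 5 pluripotent arrays did not overlap the MEF arrays, and among them ES cells were highest. Itgav fell by 2.75 ± 0.12 (SE, limma, n = 3 lines against 2 MEF arrays, adjusted p = 0.00659), a 6.74-fold difference. Itga8, which pairs with Itgb1 and binds nephronectin, was at 3.97, 3.91 and 3.74 in the KSR lines, 3.74 in O4-1 in 2i and 4.10 in ES cells, against 7.03 in MEFs in iCD1 and 5.83 in FBS. All pluripotent values were low and the MEF values differed between media, with iCD1 the higher. Itga8 fell by 2.56 ± 0.11 (limma, adjusted p = 0.00659), and the difference was -1.96 with the FBS array as the only MEF array and -3.15 with the iCD1 array. Itga5, which forms the main fibronectin receptor with Itgb1, was at 7.02, 6.81 and 7.03 in the KSR lines, 7.22 in O4-1 in 2i and 7.34 in ES cells, against 8.55 in MEFs in iCD1 and 8.85 in FBS. Its groups did not overlap, and it fell by 1.75 ± 0.12 (limma, adjusted p = 0.00786). Itga2b, the platelet fibrinogen receptor subunit, was 0.30 ± 0.10 lower without passing (limma, adjusted p = 0.127).

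Promoters are shown for Itgav and Itga5 and for the beta subunits Itgb1 and Itgb5 that pair with them, because these receptor genes fell together. They are the 250 bases upstream of the annotated start in RefSeq, build GRCm38.p6, read 5′ to 3′ on the gene's strand. Itgav is at chr2:83724147-83724396 on the plus strand, Itga5 at chr15:103366792-103367041 on the minus strand, Itgb1 at chr8:128685404-128685653 on the plus strand and Itgb5 at chr16:33829415-33829664 on the plus strand. Capitals mark matches on either strand to a GC box (GGGCGG), an AP-1 site (TGANTCA), a TEAD site (GGAATG), an octamer (ATGCAAAT) or a TATA box (TATAAA).
Itgav: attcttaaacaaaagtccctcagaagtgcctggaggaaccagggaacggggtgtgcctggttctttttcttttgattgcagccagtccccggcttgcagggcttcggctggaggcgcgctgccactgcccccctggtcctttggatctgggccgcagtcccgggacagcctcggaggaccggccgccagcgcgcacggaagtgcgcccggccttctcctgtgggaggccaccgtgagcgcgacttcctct
Itga5: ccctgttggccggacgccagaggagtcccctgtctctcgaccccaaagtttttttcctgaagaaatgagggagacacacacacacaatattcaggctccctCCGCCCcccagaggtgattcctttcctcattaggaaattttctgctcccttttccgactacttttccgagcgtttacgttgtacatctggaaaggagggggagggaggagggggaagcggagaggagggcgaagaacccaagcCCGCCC
Itgb1: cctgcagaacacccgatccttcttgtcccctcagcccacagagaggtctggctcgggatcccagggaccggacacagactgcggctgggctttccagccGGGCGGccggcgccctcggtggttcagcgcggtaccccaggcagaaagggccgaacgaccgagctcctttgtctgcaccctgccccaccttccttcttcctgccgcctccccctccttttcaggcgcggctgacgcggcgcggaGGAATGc
Itgb5: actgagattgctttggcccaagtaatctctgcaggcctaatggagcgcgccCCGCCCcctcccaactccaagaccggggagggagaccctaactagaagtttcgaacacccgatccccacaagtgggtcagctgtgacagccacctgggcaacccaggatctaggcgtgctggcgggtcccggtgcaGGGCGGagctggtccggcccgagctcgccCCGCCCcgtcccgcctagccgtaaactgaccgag
These windows were 55.6% to 68% G and C, where the median over all 32851 promoters in the table was 52.4%. Itga5 held 2 GC boxes, Itgb1 held 1 GC box and 1 TEAD site, Itgb5 held 3 GC boxes, and none of these letters were found for Itgav. Of 12 fallen members with an entry 4 held a GC box, against 32.7% of all promoters, 0 an AP-1 site (6.75% of all), 1 a TEAD site (12.6%), 0 an octamer (1.6%) and 0 a TATA box (12.4%). Among the 11 uncalled members with an entry 4 held a GC box, 1 an AP-1 site and 2 a TEAD site. In all 23 of 36 members matched the table. A match describes the letters only.

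Subunits for collagens, VCAM-1 and tenascin were also lower in the pluripotent cells. Itga4, which binds VCAM-1 and fibronectin, was at 3.95, 4.29 and 3.91 in the KSR lines, 4.03 in O4-1 in 2i and 3.95 in ES cells, against 7.15 in MEFs in iCD1 and 5.81 in FBS. It fell by 2.43 ± 0.16 (limma, adjusted p = 0.00786), and the difference was -1.76 with the FBS array as the only MEF array and -3.10 with the iCD1 array. Its relative Itga9, a tenascin-C receptor subunit, was at 4.54 to 4.95 in the KSR lines against 5.93 in MEFs in iCD1 and 6.0 in FBS, and fell by 1.18 ± 0.17 (limma, adjusted p = 0.0205). Of the 4 collagen receptor subunits 2 fell. Itga11, a collagen receptor subunit typical of mesenchymal cells, was at 4.59, 4.58 and 4.26 in the KSR lines, 4.44 in O4-1 in 2i and 4.34 in ES cells, against 4.96 in MEFs in iCD1 and 6.46 in FBS. The groups did not overlap, but the iCD1 array lay close to the pluripotent ones. Itga11 fell by 1.23 ± 0.15 (limma, adjusted p = 0.0155), and with the iCD1 array as the only MEF array the difference was -0.48 (adjusted p = 0.177). Itga2 fell by 1.18 ± 0.10 (limma, adjusted p = 0.00899), while its highest array value, 5.06, stayed under the median of all tested values, 5.21. Itga1 and Itga10 did not pass, at -1.15 ± 0.42 and -0.29 ± 0.12.

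Of the 3 laminin receptor alpha subunits 1 fell. Itga6, the laminin receptor subunit known from mouse ES cells, was at 7.94, 8.07 and 7.85 in the KSR lines, 7.96 in O4-1 in 2i and 8.23 in ES cells, against 7.96 in MEFs in iCD1 and 8.06 in FBS. The groups overlapped, the difference was -0.06 ± 0.11 with a 95% interval of -0.37 to 0.26 (limma, adjusted p = 0.772), and it was 0.02 when arrays were centred on their medians. Itga3 was 0.98 ± 0.31 lower without passing (limma, adjusted p = 0.107), although the pluripotent arrays, at 5.14 to 5.97, did not overlap the MEF arrays at 6.27 and 6.63. Itga7 fell by 0.53 ± 0.08 (limma, adjusted p = 0.0234), but its KSR values of 4.36 to 4.39 stood against 4.61 in MEFs in iCD1 and 5.20 in FBS, and with the iCD1 array alone the difference was -0.23 (adjusted p = 0.212). The highest array value of Itga7, 5.20, stayed just under the median of all tested values, 5.21. In leukocytes, Itgal, Itgam, Itgax, Itgad and Itgae pair with Itgb2 or Itgb7. Of these 7 genes 1 fell, Itgad, by 0.69 ± 0.09 (limma, adjusted p = 0.0169), and was at -0.37 with the FBS array alone, where it did not pass (adjusted p = 0.123). Itgad had 2 probe sets, and with their mean its difference was -0.54 in the KSR lines (limma, adjusted p = 0.0248). In ES cells against MEFs it was -0.28 with that mean, in place of -0.58. Itgad, Itgam and Itgax are close copies on chromosome 7, and cross-hybridization was not tested. Itgal was 0.56 ± 0.16 higher in the KSR lines (limma, adjusted p = 0.086). Macrophage markers averaged 4.29 to 4.53 on the KSR arrays, 4.45 and 4.49 in 2i, and 4.74 and 4.57 in MEFs in iCD1 and FBS. On any array 1 to 2 of 10 were at or above that array's median over the genes tested. In the KSR lines against MEFs 3 of the 10 fell and 1 rose, where 14.3% of all genes fell and 12.1% rose. Cd53, Cd14 and Csf1r were at -0.99, -0.73 and -0.63, whereas Laptm5 was at 2.13 (limma, adjusted p from 0.00667 to 0.0298).

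Of the 8 beta subunits 4 fell, the shared Itgb1 and 3 partners of Itgav. Itgb1, the partner of most alpha subunits of adherent cells, was at 8.61, 8.94 and 8.55 in the KSR lines, 8.63 in O4-1 in 2i and 8.74 in ES cells, against 10.81 in MEFs in iCD1 and 11.06 in FBS. The pluripotent arrays were within 0.39 of each other in KSR and did not overlap the MEF arrays. Itgb1 fell by 2.23 ± 0.16 (limma, adjusted p = 0.00826), a 4.70-fold difference. Itgb5, an Itgav partner that binds vitronectin, was at 6.79, 7.32 and 6.69 in the KSR lines, 6.29 in O4-1 in 2i and 6.77 in ES cells, against 9.08 in MEFs in iCD1 and 8.92 in FBS. O4-2 was highest and O4-1 in 2i lowest among pluripotent arrays, and Itgb5 fell by 2.06 ± 0.24 (limma, adjusted p = 0.0147). The other Itgav partners Itgb3 and Itgb8 fell, at -1.0 ± 0.16 and -0.95 ± 0.18 (limma, adjusted p = 0.0243 and 0.0364). Itgb3 did not pass with the iCD1 array as the only MEF array (adjusted p = 0.0868), and Itgb8 passed with neither MEF array alone (adjusted p = 0.0736 with iCD1 and 0.0747 with FBS). The highest array value of Itgb8, 5.16, stayed under the median of all tested values, 5.21. Itgb6, an epithelial partner of Itgav, was at -0.14 ± 0.16. Itgb4, the hemidesmosome subunit that pairs with Itga6, was at -0.12 ± 0.08, and neither passed. The leukocyte subunits Itgb2 and Itgb7 did not pass either, at -0.18 ± 0.14 and 0.40 ± 0.20.

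**Figure D2:**
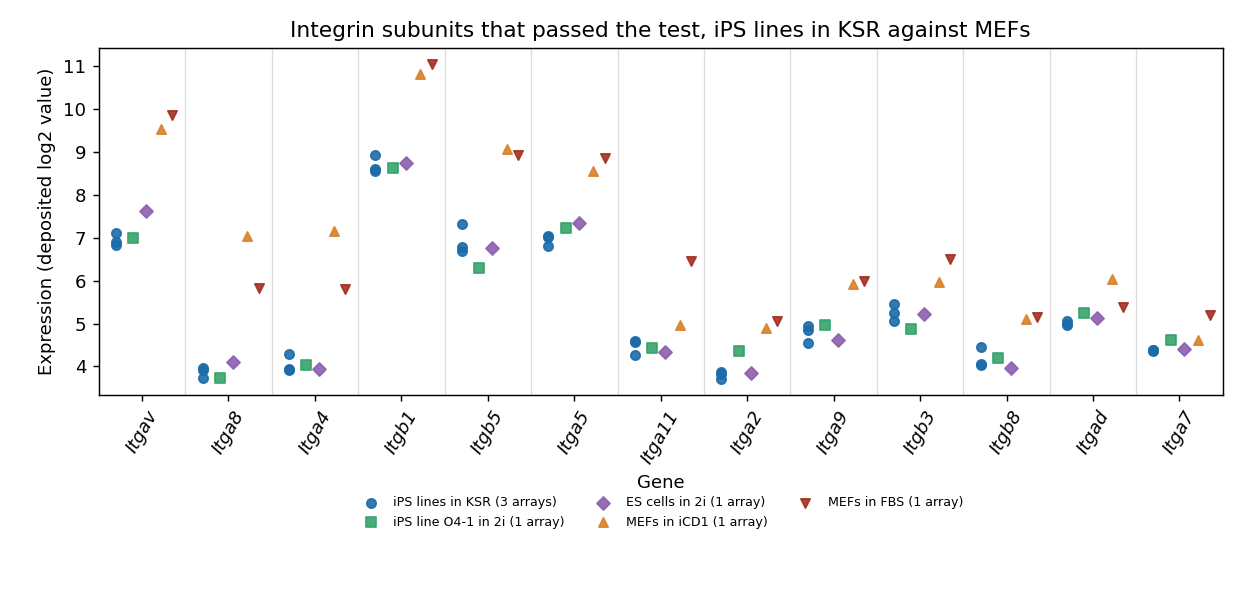
Deposited log2 expression of the 13 integrin genes that fell, on each of the 7 arrays, from the largest difference on the left to the smallest on the right. Each point is 1 array, and for Itga7 the O4-1 array in 2i and the MEF array in iCD1 are level at 4.61, while for the other 12 genes pluripotent and MEF arrays do not overlap.

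The laminin alpha chains went both ways. Lama1, the alpha chain of the first embryonic basement membranes, was at 7.18, 6.45 and 6.93 in the KSR lines, 6.98 in O4-1 in 2i and 6.98 in ES cells, against 5.30 in MEFs in iCD1 and 4.46 in FBS. All 5 pluripotent arrays lay above both MEF arrays, with O4-2 the lowest of them. Lama1 rose by 1.97 ± 0.26 (limma, adjusted p = 0.0184), a 3.92-fold difference, and with the iCD1 array as the only MEF array it was 1.55 higher without passing (adjusted p = 0.0567). Lama3, an epithelial alpha chain, was at 5.54, 5.10 and 5.36 in the KSR lines, 5.36 in O4-1 in 2i and 5.18 in ES cells, against 4.03 in MEFs in iCD1 and 4.19 in FBS. Its groups did not overlap. Lama3 rose by 1.23 ± 0.17 (limma, adjusted p = 0.0194), and with the FBS array alone it was 1.15 higher without passing (adjusted p = 0.0512). Lama5, the alpha chain of the laminin that is known to sustain mouse ES cells in culture, was at 7.56, 8.17 and 7.03 in the KSR lines, 6.94 in O4-1 in 2i and 7.30 in ES cells, against 6.42 in MEFs in iCD1 and 6.66 in FBS. The groups did not overlap, but the KSR lines spread over 1.13, and the difference of 1.05 ± 0.39 did not pass (limma, adjusted p = 0.149, 95% interval -0.09 to 2.19).

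Lama4, the alpha chain of mesenchymal and vascular basement membranes, had the largest fall of all members against the mean of both MEF arrays. It was at 4.93, 5.03 and 5.53 in the KSR lines, 4.73 in O4-1 in 2i and 5.34 in ES cells, against 8.82 in MEFs in iCD1 and 7.66 in FBS. Among the KSR lines it was highest in O4-4, and of the 16 members that fell 7 were highest and 7 lowest in that line. Lama4 fell by 3.08 ± 0.23 (limma, adjusted p = 0.00847), an 8.46-fold difference that ranked as number 98 from the bottom among all 19938 genes. The difference was -3.66 with the iCD1 array as the only MEF array and -2.50 with the FBS array, where Itgav was lower at -2.91. Lama2, the alpha chain of muscle and nerve basement membranes, was at 3.93, 3.97 and 4.06 in the KSR lines, 3.71 in O4-1 in 2i and 3.85 in ES cells, against 5.65 in MEFs in iCD1 and 6.16 in FBS, and fell by 1.92 ± 0.09 (limma, adjusted p = 0.00659).

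The beta and gamma chains followed neither pattern as a group. Lamb1, the common beta chain, was at 8.03, 8.27 and 7.42 in the KSR lines, 7.0 in O4-1 in 2i and 7.23 in ES cells, against 9.66 in MEFs in iCD1 and 8.87 in FBS. The groups did not overlap, and the difference of -1.36 ± 0.31 missed the threshold (limma, adjusted p = 0.0534), which it passed when dim genes were left out (adjusted p = 0.0158). Lamb2, the beta chain of synaptic and kidney basement membranes, was at 6.61, 6.70 and 7.25 in the KSR lines, 6.99 in O4-1 in 2i and 7.08 in ES cells, against 8.29 in MEFs in iCD1 and 8.30 in FBS. It fell by 1.44 ± 0.25 (limma, adjusted p = 0.0303), and did not pass with either MEF array alone (adjusted p = 0.0591 with iCD1 and 0.0673 with FBS). Lamc1, the gamma chain of most laminins, was at 9.06, 8.86 and 9.29 in the KSR lines, 8.97 in O4-1 in 2i and 9.49 in ES cells, against 8.85 in MEFs in iCD1 and 9.06 in FBS. These groups overlapped, and the difference was 0.12 ± 0.17 with a 95% interval of -0.36 to 0.60 (limma, adjusted p = 0.666). Lamb3 and Lamc3 did not pass, at 0.04 ± 0.09 and 0.05 ± 0.13.

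**Figure D3:**
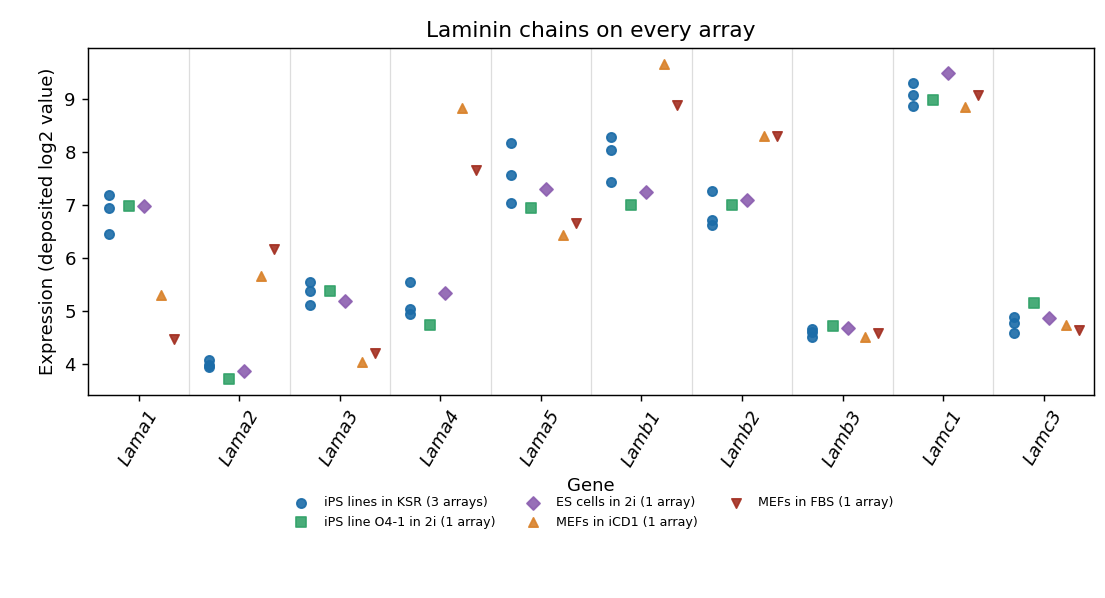
Deposited log2 expression of the 10 laminin chain genes on each of the 7 arrays, with 1 point an array. Pluripotent arrays lie above both MEF arrays for Lama1, Lama3 and Lama5, below both for Lama2, Lama4, Lamb1 and Lamb2, and overlap them for Lamb3, Lamc1 and Lamc3.

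The ES cells were set against the same MEF arrays. Of the 36 genes 11 fell and 1 rose (limma), or 30.6% and 2.78% of members where 7.46% of all genes fell and 5.37% rose. At an unadjusted p under 0.05 limma counted 21 members, against 31.2% of all genes. Both comparisons share the MEF arrays, so they are not independent. All 12 were among the 18 called in the KSR lines, in the same direction. Among the falls, the differences were -2.08 ± 0.17 for Itgav, -2.33 ± 0.15 for Itga8, -1.36 ± 0.16 for Itga5, -2.53 ± 0.22 for Itga4, -2.19 ± 0.22 for Itgb1 and -2.23 ± 0.33 for Itgb5 (limma, adjusted p from 0.0196 to 0.0378). Lama4 fell by 2.91 ± 0.31, Lama2 fell by 2.06 ± 0.12 and Lama1 rose by 2.10 ± 0.35 (limma, adjusted p = 0.0262, 0.019 and 0.0464). Lama3, at 1.07 ± 0.23, and Lamb1, at -2.03 ± 0.41, did not pass (limma, adjusted p = 0.0681 and 0.0635). Without any 1 of the 3 KSR lines 0 of all genes were called here, with 12 of 12 members in the same direction and at an unadjusted p under 0.05. With the FBS array as the only MEF array 7 of the 12 were called, and with the iCD1 array 8 of them, and Lama1, Itga9 and Itgb5 passed with neither.

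Genes that work with these subunits were counted from lists drawn up by function. For comparison with the counts below, 14.3% of all genes fell and 12.1% rose in the KSR lines against MEFs (limma). Of 20 measured ligands of integrins other than laminins 17 fell and 0 rose in the KSR lines against MEFs, with 1 higher at an unadjusted p under 0.05 and a median difference of -2.47 against 0.00 over all genes (limma). The largest falls were those of Tnc (tenascin-C), which fell by 4.18 ± 0.57, Tgfbi, which fell by 4.15 ± 0.14, and Ltbp1, a binding protein of latent TGF-beta, which fell by 3.54 ± 0.14. Of 21 cytoplasmic linkers and signalling partners of integrins 8 fell and 0 rose, and 0 were higher at an unadjusted p under 0.05, with a median of -0.53. Parva (parvin) fell by 3.14 ± 0.27, its partner Ilk (integrin-linked kinase) fell by 2.30 ± 0.13 and the actin linker Vcl (vinculin) fell by 1.83 ± 0.20 (limma, adjusted p = 0.00948, 0.00708 and 0.0135). The talin gene Tln1, which activates integrins, fell by 1.53 ± 0.08, whereas Tln2 was at 0.17 ± 0.09 (adjusted p = 0.29). Tln1 and Tln2 were chosen after their values were seen. Of 20 basement membrane partners 10 fell and 5 rose, with a median of -0.70. Nid1 (nidogen) fell by 2.95 ± 0.43, Sparc fell by 2.10 ± 0.12 and the perlecan gene Hspg2 fell by 2.05 ± 0.19, while Frem2, a basement membrane protein gene of the Fraser complex, rose by 2.41 ± 0.19, Bcam, a receptor for Lama5 chains, by 1.55 ± 0.19 and Smoc1 by 1.46 ± 0.11 (limma, adjusted p from 0.00754 to 0.0215). Smoc1 was 2.60 higher in the KSR lines than in MEFs in iCD1 and 0.32 higher than in MEFs in FBS, so that its size rested on the iCD1 array. Nid2, counted among the rises, was at -0.05 against MEFs in iCD1 and 0.87 against MEFs in FBS. Ccn2, counted among the fallen ligands, was at 0.35 against MEFs in iCD1 and -1.55 against MEFs in FBS. Nid2 and Ccn2 are named because their sign differed between the MEF arrays. Of 8 tetraspanins, membrane proteins that associate with integrins, 5 fell and 0 rose or were higher at an unadjusted p under 0.05, and the 3 largest falls were Cd82, which fell by 1.86 ± 0.22, Cd81, which fell by 1.62 ± 0.19, and Tspan4, which fell by 1.62 ± 0.20 (limma, adjusted p from 0.0147 to 0.0156). Of 5 hemidesmosome partners 1 fell, a count near the share of all genes. This was the plectin gene Plec, which fell by 2.23 ± 0.11 (limma, adjusted p = 0.00667). Several list members, such as the collagen genes, also served as fibroblast markers.

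The 2i medium was compared with KSR in pluripotent cells by setting the iPS and ES arrays in 2i against the 3 KSR lines. Cell origin differs in part between these groups. No gene of the array passed (limma, 0 of 19938, which is 0%), and 3 members, or 8.33%, had an unadjusted p under 0.05, where 9.02% of all genes had. The 2i arrays did not overlap the KSR arrays for 8 members, or 22.2%, against 26% of all genes. Of these 6 were higher in 2i, or 16.7% of members against 12.9% of all genes. The other 2 were lower, or 5.56% against 13.1%. The median difference over the members was 0.00. Itgb4 had the lowest unadjusted p of the members. It was at 5.73 in O4-1 in 2i and 5.68 in ES cells, against 5.25, 5.20 and 5.19 in O4-1, O4-2 and O4-4 in KSR, so both 2i arrays were above all KSR arrays. Its difference was 0.49 ± 0.08 (limma, unadjusted p = 0.00525, adjusted p = 0.545). Itgav and Itga2 were 0.36 ± 0.12 and 0.30 ± 0.10 higher in 2i (limma, adjusted p = 0.551 each), but for both genes the 2i and KSR arrays overlapped. Against the KSR mean Itgav was at 0.05 in O4-1 in 2i and 0.67 in ES cells. Itga2 was at 0.55 in O4-1 in 2i and 0.05 in ES cells.

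Lamb1, Itga1 and Lama5 were lower in 2i on average but varied between the KSR lines. Lamb1 was at 7.0 in O4-1 in 2i and 7.23 in ES cells, against 8.03, 8.27 and 7.42 in the KSR lines. Both 2i arrays were below all KSR arrays, with O4-4 the nearest, and the difference was -0.79 ± 0.31 (limma, adjusted p = 0.556). Itga1, a collagen and laminin receptor subunit, was at 3.45 in O4-1 in 2i and 4.11 in ES cells, against 4.95, 5.13 and 4.00 in the KSR lines. O4-4 in KSR was lower than the ES cells, so the groups overlapped, and the difference was -0.91 ± 0.42 (limma, adjusted p = 0.582). Lama5 was at 6.94 and 7.30 in 2i against 7.56, 8.17 and 7.03 in KSR, again with O4-4 the lowest KSR line. Primitive and parietal endoderm markers, known from cells that make much laminin, had a mean level over 7 genes of 4.96 in O4-1 and 5.26 in ES cells in 2i, against 5.59, 5.4 and 5.26 in the KSR lines. Of these 7 genes 6 were lower in 2i, 1 at an unadjusted p under 0.05 and 0 after adjustment (limma). Dab2 at -1.16 and Thbd at -0.60 were the widest, and the other 5 lay between -0.26 and 0.13. Dab2, at 8.43 and 8.75, and Thbd, at 6.99 and 7.79, were highest in MEFs in iCD1 and FBS. Of 9 fibroblast markers 7 were lower in 2i and 2 higher, with Thy1 at -0.99 and Pdgfra at -0.82 the widest. Of the fibroblast markers 3 were lower at an unadjusted p under 0.05 and 0 after adjustment (limma). Among all 19938 genes 9475 were lower in 2i, 883 of them at an unadjusted p under 0.05 (limma). The part of either marker set in the result was not tested. Within line O4-1, where 1 array stands against 1 and no test was run, 2 members differed 2-fold or more between 2i and KSR, or 5.56% of members and 1.43% of all genes. Both were lower in 2i, as were 0.953% of all genes, whereas 0 members and 0.481% of all genes were higher. These were Itga1 at -1.50 and Lamb1 at -1.03. Next came Itga2 at 0.64, Lama5 at -0.62, Itga3 at 0.53 and Itgb5 at -0.50. ES cells against iPS cells, both in 2i, differed 2-fold or more in 0 members, and in 0.978% of all genes (0.672% higher in ES cells). Itga1 at 0.65, Itgav at 0.62 and Lama4 at 0.61 were the widest gaps, all higher in ES cells.

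**Figure D4:**
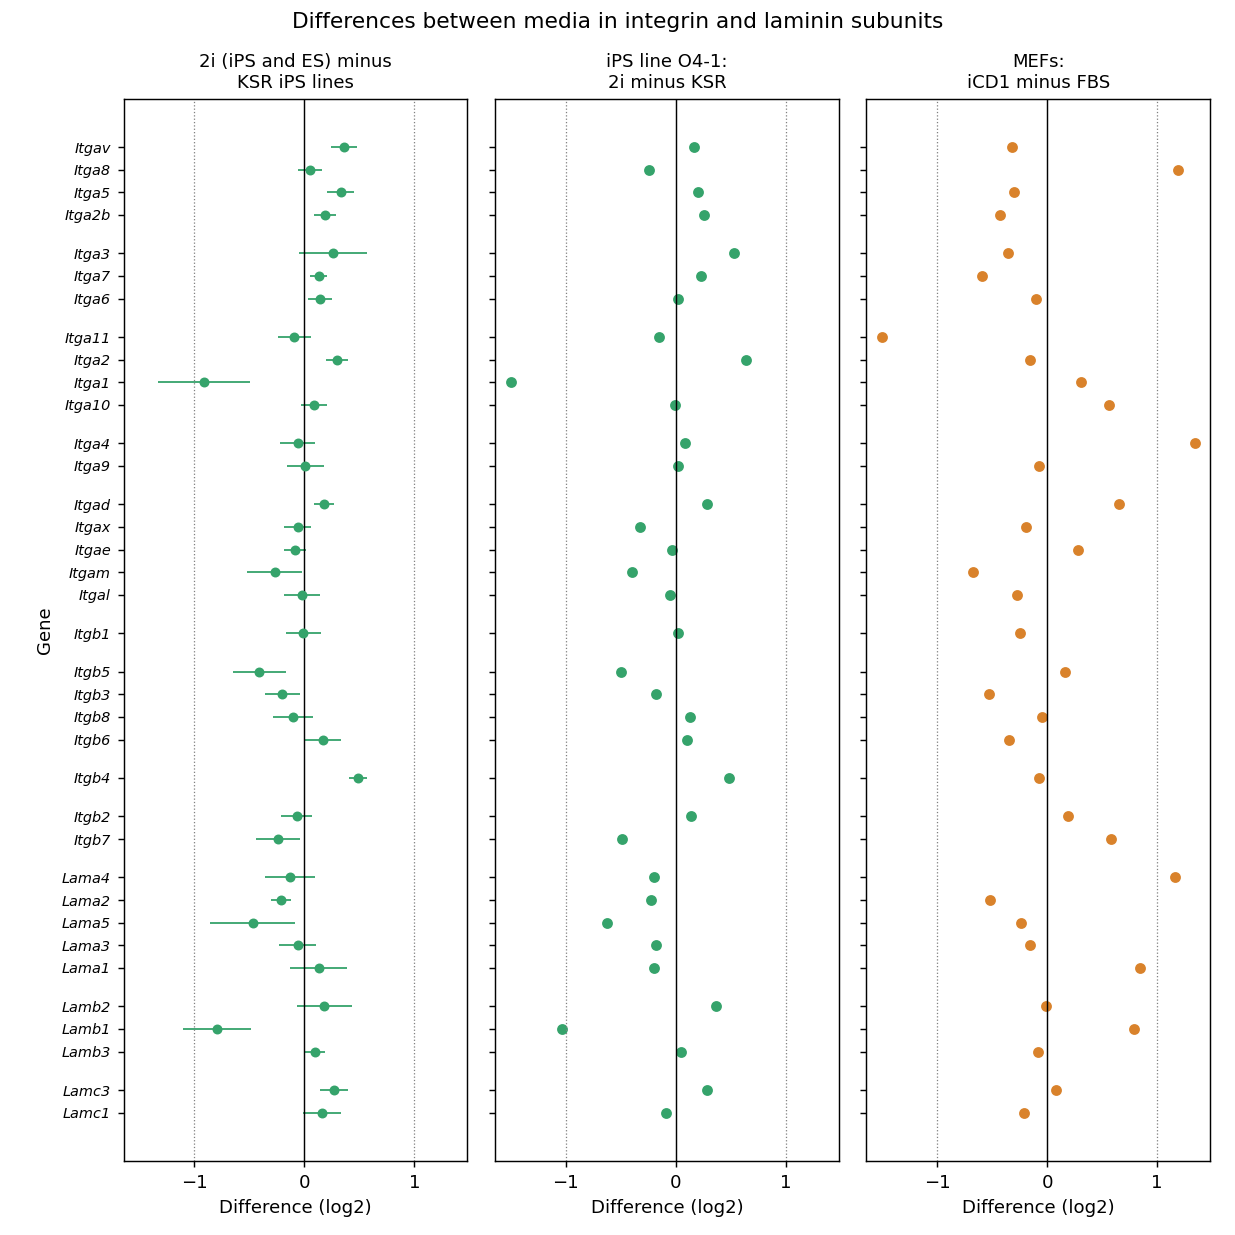
Differences in log2 expression of the 36 genes between media, as 2i (iPS and ES arrays) minus the 3 KSR lines with standard errors from limma (left), O4-1 in 2i minus O4-1 in KSR (middle, 1 array against 1) and MEFs in iCD1 minus MEFs in FBS (right, 1 array against 1). Dotted lines mark 2-fold. Itga1 and Lamb1 lie at or past 2-fold in O4-1, and Itga4, Itga8, Lama4 and Itga11 in MEFs.

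Among KSR lines the members had a median SD of 0.20, against 0.16 over all genes. O4-1 differed 2-fold or more from O4-2 in 0 members (0.612% of all genes) and from O4-4 in 0 (1.55%). O4-2 differed from O4-4 in 2 members, or 5.56% against 2.83% of all genes, Itga1 at 5.13 against 4.00 and Lama5 at 8.17 against 7.03. O4-4 was the lowest KSR line for 16 members and the highest for 9.

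In fibroblasts the iCD1 medium was set against FBS, with 1 array each and no test. By 2-fold or more, 3 of the 36 genes were higher in iCD1 and 1 was lower, together 11.1% of members. Of all genes 1.7% were that much higher and 0.998% that much lower, together 2.7%. Itga4 was at 7.15 in iCD1 against 5.81 in FBS (1.34), Itga8 at 7.03 against 5.83 (1.19) and Lama4 at 8.82 against 7.66 (1.16). Itga11 went the other way, at 4.96 in iCD1 against 6.46 in FBS (-1.50). Lama1, Lamb1, Itgad, Itgb7 and Itga10 were higher in iCD1, by 0.84, 0.79, 0.65, 0.58 and 0.56, while Itgam, Itga7, Itgb3 and Lama2 were lower, at -0.67, -0.59, -0.53 and -0.52. Itgb1, Itgav and Itga5 differed little, at -0.25, -0.32 and -0.30. Mean levels of other markers were 4.74 in iCD1 and 4.57 in FBS for macrophages, 4.20 and 4.17 for endothelium, 5.67 and 5.89 for skeletal muscle, 5.14 and 5.62 for cartilage, 6.07 and 6.37 for primitive and parietal endoderm, 4.08 and 4.31 for keratinocytes, 4.74 and 4.82 for Schwann cells and 4.46 and 5.27 for megakaryocytes, where Ppbp at 3.87 and 6.22 was the 1 of 3 genes that differed by more than 0.11. Single genes differed more than these means. In iCD1 against FBS 5 of 10 macrophage markers were higher, and Lyz2 was the widest at 6.83 against 4.99. Of 6 endothelial markers 3 were higher, and Cdh5 was the widest at 4.81 against 3.89. Of 4 cartilage markers 1 was higher, and Col2a1 was the widest at 7.66 against 8.98. Of 9 fibroblast markers 4 were higher, and Dcn was the widest at 9.61 against 6.78. The FBS value of Dcn lay below those of O4-2 and O4-4 in KSR, at 6.99 and 7.54. The part of these markers in the differences between the fibroblast cultures was not tested.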

How the data were processed

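Trizol RNA, 100 ng a sample, was labelled by the Affymetrix whole transcript assay, per the labels' protocols. For the deposited log2 values the submitters' processing notes name RMA and Partek as what the authors used, and the sources used here give no versions or settings. Values were used as deposited, without a filter. Depth has no counterpart on arrays, and the number of arrays limits the precision.

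The table held 28853 probe sets, of which the annotation table gave 21789 with 1 symbol, 1621 with several and 5443 unnamed here. Of those with 1 symbol 21698 matched a RefSeq gene ID (GRCm38.p6), and 0 symbols changed. Where a gene had more than 1 (999 genes, Itgad among the members), the probe set of highest mean was kept, leaving 19938 genes. Groups came from the titles. Other label fields differ (fibroblasts are named as source for the ES sample, and iCD1 for the iPS samples).

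One limma 3.58.1 fit of all 5 groups (R 4.3.3) gave two-sided p-values, adjusted by Benjamini-Hochberg across the 19938 genes, with calls at 0.05. Residual degrees of freedom, 2 from the KSR lines, were joined by 1.62 from the prior, so a group of 1 array is assumed to vary like those lines. Comparisons of 1 array with 1 count genes at 2-fold or more. Named were all members and, of each list, the 3 largest falls and rises that passed. Some listed genes, such as Ptk2, Spp1 and Fbn1, had no probe set used here. Members and lists were chosen with earlier results of these data known. Promoters came from RefSeq (GRCm38.p6). Alternatives were other probe set, filter, scaling, group and prior choices and leaving out arrays.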

Additional observations from a re-analysis of the deposited data

Results flagged for a closer look

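Itgb4, the hemidesmosome partner of Itga6, lay on opposite sides of the MEF arrays in the pluripotent media. All 3 KSR lines were lower than both MEF arrays (mean difference -0.12) and both 2i arrays were higher than both MEF arrays (mean difference 0.37). The levels were 5.73 and 5.68 in O4-1 and ES cells in 2i, against 5.25, 5.20 and 5.19 in the KSR lines, with 5.30 and 5.37 in MEFs in iCD1 and FBS. The 2i arrays against the KSR lines did not pass over all genes (limma, adjusted p = 0.545), nor did the KSR lines against MEFs (adjusted p = 0.39) or ES cells against MEFs (adjusted p = 0.133). The KSR side was -0.04 with centred arrays and -0.03 after quantile normalization.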

How the results depend on the processing

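Calls rested on the 3 KSR lines. In the KSR lines against MEFs, leaving out a line gave 0 to 11 members lower and 0 higher, and in ES cells against MEFs 0 lower and 0 higher. With 2 lines the fit has 1 residual degree of freedom. In the KSR lines against MEFs 4 members were higher, in place of 2, with arrays centred on the median or with 3 groups in the fit, and 1 with either MEF array alone. In ES cells against MEFs 2 members were higher, in place of 1, without dim genes, with centred arrays or with 3 groups (then for both 2i arrays), and 0 with either MEF array alone, where the FBS array gave 7 lower. In 2i against KSR every setting run gave 0 calls. At 1.5-fold, 9 members (25%, against 10.3% of all genes) differed between MEF media, 4 (11.1%, against 8.68%) within O4-1 and 3 (8.33%, against 5.85%) between ES and iPS cells in 2i, and after quantile normalization 1 within O4-1.

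A difference changed sign only in comparisons where that member had not passed. In the KSR lines against MEFs these were Itga6 0.02 with centred arrays, Itgam -0.03 with the FBS array alone, Itgb6 0.03 with the iCD1 array alone and Lamc3 -0.02 to 0.14 over the fits that left out a KSR line. In ES cells against MEFs they were Itgam 0.04, Itgb6 0.03 with 3 groups, Itga10 0.10 with the FBS array alone, and Itga2b 0.13, Itgae -0.01, Itgam 0.14, Itgb6 0.10, Itgb7 -0.19 with the iCD1 array alone. In 2i against KSR they were Itga9 0.00, Itgb1 0.02 after quantile normalization, Itga4 -0.13 to 0.06, Itga8 -0.02 to 0.10, Itga9 -0.11 to 0.10, Itgal -0.14 to 0.05, Itgax -0.13 to 0.00, Itgb1 -0.09 to 0.10, Itgb2 -0.14 to 0.02, Itgb8 -0.17 to 0.04, Lama1 -0.07 to 0.29, Lama3 -0.18 to 0.04, Lama4 -0.25 to 0.05 over the fits that left out a KSR line, Itga8 -0.13, Itgal 0.09, Itgb2 0.09, Itgb8 0.01, Lama3 0.03, Lamc1 -0.10 with the iPS array alone and Itga9 -0.17, Itgax 0.08, Itgb1 0.04, Lama4 0.17 with the ES array alone. Of the other member values 988 kept direction and side of the threshold, 101 no longer passed and 30 newly passed; apart from fewer samples in the fit the cause was not tested. No paired analysis was possible because the groups compared share fewer than 2 line numbers. Signal over background is not given. On an array 25 of 36 members reached the median of all tested values, 5.21, so small differences of the others are limited by dim signal.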
